A study of Mus musculus with 11 samples.

Results

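Blood-forming stem cells of the mouse (hematopoietic stem cells, HSCs) were compared between mice injected with all-trans retinoic acid (ATRA) and mice injected with phosphate-buffered saline (PBS), with no other agent given to either. The 6 samples were those titled as ATRA (3 arrays) and as PBS (3 arrays), out of 11 samples in all. The comparison was described over all 22180 genes that had a probe set of their own, with the probe set of the highest mean over all arrays standing for each gene. The study asked how vitamin A signalling bears on HSC dormancy, and its other samples were HSCs from mice given pIC (polyI:C, a synthetic RNA duplex that triggers interferon; 2 arrays) or ATRA followed by pIC (ATRA+pIC; 3 arrays). All cells were mouse HSCs sorted by FACS, and total RNA was labelled with biotin and hybridised to Affymetrix arrays. Not given in the sources used here are strain, age, gate, dose, the number of injections, the time from injection to sorting, any batch, and whether replicates were separate mice. The p-values below therefore cover the spread between these samples alone, and part of that may be technical.

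ATRA is the active form of vitamin A. It enters the nucleus and binds retinoic acid receptors (RAR), which sit on DNA as pairs with retinoid X receptors (RXR) and switch on genes near their binding sites; several of those genes encode enzymes that remove retinoids, so that the signal limits itself. Most HSCs are quiescent, a few are cycling at any time, and dormant ones are known for low expression of cell-cycle and biosynthesis genes.

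Values are deposited log2 intensities, so a difference of 1 is a doubling, and differences are ATRA minus PBS ± standard error (SE), both from a single limma model that holds the 11 arrays. P-values were adjusted by Benjamini and Hochberg's method over the 22180 genes, and a gene was called where its adjusted p was under 0.05. The PBS and ATRA arrays had medians from 6.225 to 6.282, and each correlated with the mean of the other arrays of its group at r = 0.994 to 0.9959. The number of arrays limits the precision: the median SE was 0.11, and the 95% interval of the difference lay within 1 log2 unit of 0 for 98.6% of genes and within 0.5 for 83.4%. Of the HSC markers listed, 8 of 8 measured (Procr, Slamf1, Fgd5, Mecom, Hlf, Kit, Esam and Meis1) lay above the level below which 90% of olfactory and vomeronasal receptor genes lay, which was taken as background. Defining markers of other cells were above it too, 4 of 4 measured for megakaryocytes, 3 of 3 for erythroid cells, 3 of 3 for endothelium, 3 of 4 for T and NK cells, 3 of 5 for neutrophils and 2 of 5 for monocytes. Outside the comparison, ATRA+pIC replicate 2 stood apart, with a median of 1 over 40 type I interferon targets relative to PBS against 2.16 and 1.89 on the other ATRA+pIC arrays. It enters the model through the shared spread, so adjusted p-values and counts that moved most without it are also given without it. There 1847 genes had an unadjusted p under 0.05.

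With ATRA, 1 gene passed the threshold. Dhrs3, which reduces retinaldehyde back to retinol and so lowers the supply of retinoic acid, read 9.0, 9.43 and 9.03 on the PBS arrays and 10.92, 11.41 and 11.30 on the ATRA arrays. Every ATRA array was more than 1 log2 unit above every PBS array. Dhrs3 rose by 2.06 ± 0.16, or 4.17-fold (limma adjusted p = 0.00149). It was 1 of 22180 genes called, 0.00451%. A further 14 genes had adjusted p from 0.0534 to 0.0589: P2rx4, Pf4, P2rx7, Stx1a, Vldlr, Selp, Tgm2, Gda, Tmem176a, Mterf1b, Ect2, Mid1, Tuba8 and Tmem176b. At an unadjusted limma p under 0.05 there were 1508 genes (6.8%), 729 of them higher with ATRA (3.29%) and 779 lower (3.51%). The ATRA and PBS arrays did not overlap for 12.7% of genes: all 3 ATRA arrays were above all 3 PBS arrays for 1466 genes (6.61%) and below them for 1348 (6.08%). Among those, 16 genes were higher and 2 lower by more than 1 log2 unit.

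The count of called genes moved with single arrays. Without ATRA+pIC replicate 2, an array of neither group, 26 genes were called, 15 higher and 11 lower: Aspa, Dhrs3, Dlgap5, Ect2, Exoc6b, Gda, Gm5751, Itgam, Kif22, Mfsd2b, Mid1, Mterf1b, Neo1, P2rx4, P2rx7, Pf4, Plk1, Selp, Shisa9, Stx1a, Tgm2, Tmem176a, Tmem176b, Tuba8, Ufsp1 and Vldlr. Without PBS replicate 1 the count was 2 (Dhrs3 and Prg4), without ATRA replicate 1 it was 3 (Dhrs3, Hmmr and Tubb6) and without ATRA replicate 3 it was 3 (Dhrs3, Mir669j and Snord13). Dhrs3 was called under every setting tried. Its adjusted p ran from 0.000291 to 0.0481 over the 18 alternative settings that kept the chosen probe set of each gene. Ranges of adjusted p given below over all settings are over these 18.

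**Figure D1:**
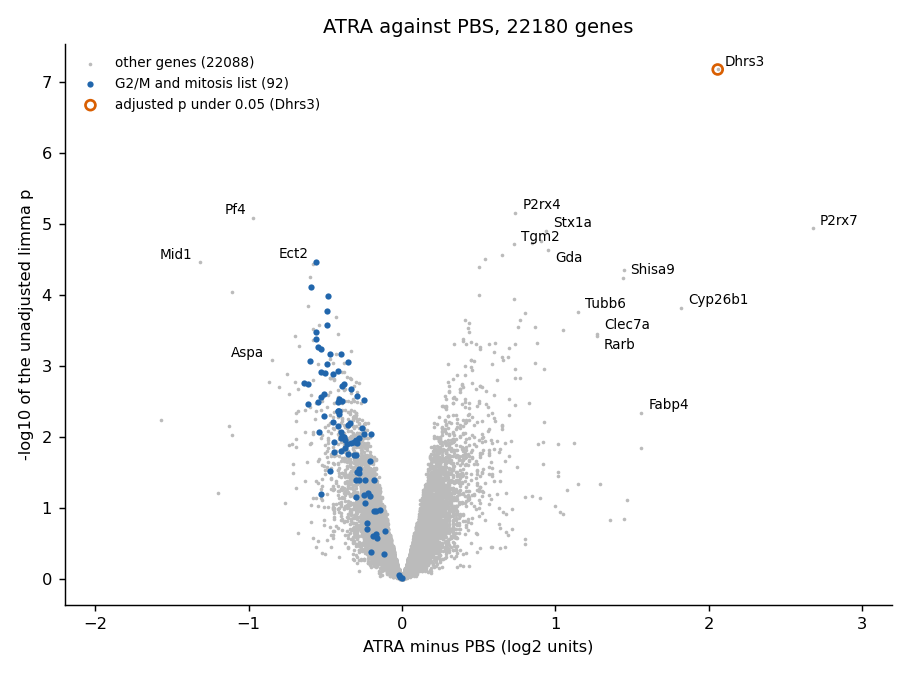
Difference between ATRA and PBS (log2 units, x axis) against the negative log10 of the unadjusted limma p (y axis) for 22180 genes, with the 92 measured genes of the G2/M and mitosis list in blue and the called gene ringed. Dhrs3 stands alone at the top with a difference of 2.06, P2rx7 lies farthest right at 2.68, and nearly all blue points lie left of 0.

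In the retinoid pathway the largest differences after Dhrs3 were those of Cyp26b1, which degrades retinoic acid, and Rarb, which binds it. Cyp26b1, a cytochrome P450 that oxidises its substrate for disposal, read 7.5, 7.83 and 7.28 with PBS and 8.86, 9.81 and 9.39 with ATRA. The ATRA arrays were all above the PBS arrays, with ATRA replicate 1 the lowest, and the difference was 1.82 ± 0.32 (limma adjusted p = 0.135, and 0.0675 without ATRA+pIC replicate 2, with 0.0482 to 0.484 over all settings). Cyp26a1, its close relative and the standard retinoic acid target of liver and embryo, read 4.84, 4.61 and 4.81 with PBS and 4.82, 4.73 and 4.89 with ATRA, below the background level of 5.62 throughout. Of the enzymes that make retinoic acid, Aldh1a1 had a difference of -0.38 ± 0.18 and Rdh10, which oxidises retinol to retinaldehyde, -0.11 ± 0.14, and the arrays of both genes overlapped between the groups. Adh1, a retinol-oxidising alcohol dehydrogenase, had -0.33 ± 0.13 with separate arrays, but at levels from 5.02 to 5.50, and its other probe set gave -0.09 ± 0.08. Among carriers, Crabp2, which delivers retinoic acid to RAR, had a difference of 0.06 ± 0.10, and Fabp5, which carries fatty acids and retinoic acid to the receptor Ppard, had -0.23 ± 0.10. Over the 39 measured retinoid enzymes and carriers, 1 was called (Dhrs3), 2 were higher and 2 lower at an unadjusted p under 0.05 (4 lower without ATRA+pIC replicate 2, and 0 lower without PBS replicate 3 or ATRA replicate 1), and the median was -0.01, against -0.002 for all genes. The shares of all genes at that p were 3.29% higher and 3.51% lower.

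The receptors were led by Rarb, the RAR that is itself a classic target of retinoic acid. It read 6.74, 6.86 and 6.43 with PBS and 7.70, 8.26 and 7.88 with ATRA, so that the groups did not overlap, and the difference was 1.27 ± 0.25 (limma adjusted p = 0.189, and 0.0545 without ATRA+pIC replicate 2, with 0.0482 to 0.548 over all settings). Rarg had a difference of 0.26 ± 0.09 and Rara, the main RAR of blood cells, of 0.12 ± 0.08, each with all ATRA arrays above all PBS arrays. Ppard, a fatty acid receptor that pairs with RXR, had 0.30 ± 0.11, also separate. Of 24 receptors and cofactors, 0 were called. At an unadjusted p under 0.05, 3 were higher and 0 lower (1 higher without ATRA replicate 1), against 3.29% of all genes higher. All ATRA arrays were above all PBS arrays for 7 (29.2%), against 6.61% of all genes. Rxra (-0.08) and Rxrb (-0.04) were among the 7 of 24 with a negative difference.

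Among 26 measured genes of a broader list of retinoic acid targets, Dhrs3 was the 1 called. At an unadjusted p under 0.05, 6 were higher and 0 lower, against 3.29% of all genes higher. The arrays were separate above PBS for 7 (26.9%, against 6.61% of all genes) and below it for 0. The list shares 8 genes with the enzymes and carriers and 4 with the receptors. Its median was 0.04, while its 4 largest differences ran from 0.73 to 2.06. Tgm2, the tissue transglutaminase that cross-links proteins, read 10.29, 10.44 and 10.22 with PBS and 10.90, 11.21 and 11.03 with ATRA. Its groups were separate and its difference was 0.73 ± 0.10 (limma adjusted p = 0.0534). Hoxb4, a homeobox factor that promotes HSC self-renewal and lies in a retinoid-responsive cluster, had 0.41 ± 0.15 with separate arrays (limma adjusted p = 0.655). Hoxb5, of the same cluster, had 0.10 ± 0.08 with overlapping arrays, and -0.03 ± 0.10 at its other probe set.

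**Figure D2:**
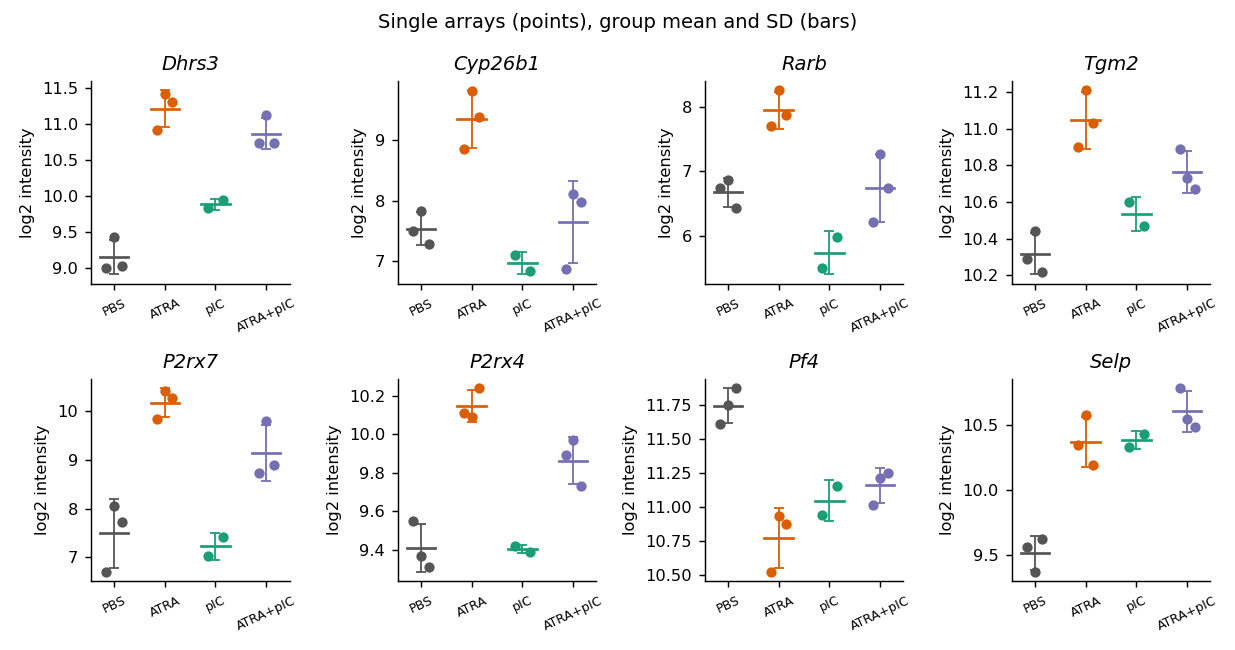
Log2 intensity of 8 genes on single arrays (points) with the group mean and SD (bars) for PBS, ATRA, pIC and ATRA+pIC; each panel has its own scale, which does not start at 0. Dhrs3, Cyp26b1, Rarb, Tgm2, P2rx7, P2rx4 and Selp are higher and Pf4 is lower on all 3 ATRA arrays than on all 3 PBS arrays.

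RAR and RXR bind direct repeats of a short half-site, so the promoter sequences were searched for them. RefSeq promoters (GRCm38.p6, 250 bases before to 50 after each start) were scanned on both strands for 2 copies, in any combination, of the half-site AGGTCA or its relatives, spelled GGGTCA or AGTTCA or otherwise GGTTCA, with a spacer of 1, 2 or 5 bases. A repeat with spacer 5 was present in 0.0974% of 32851 windows, in 1 of the 15 promoters found for the 20 genes with the largest positive difference (Rarb), and in 2 of the 23 found for the retinoic acid list (Rarb and Cyp26a1). Repeats with spacer 1 or 2 were in 0.222% and 0.268% of windows and in 0 of either set. The 100 bases before the start of both genes are shown because they hold the same type of repeat while their array values differed. Capitals mark the half-sites; the Rarb stretch lies at chr14:16575477-16575576 on the minus strand and the Cyp26a1 stretch at chr19:37697708-37697807 on the plus strand, where the repeat reads on the opposite strand.
Rarb: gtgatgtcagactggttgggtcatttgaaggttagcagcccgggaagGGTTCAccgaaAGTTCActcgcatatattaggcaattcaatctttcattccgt
Cyp26a1: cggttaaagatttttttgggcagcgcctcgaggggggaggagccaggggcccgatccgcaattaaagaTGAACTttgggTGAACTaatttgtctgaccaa
The Rarb repeat spans bases -53 to -37 and the Cyp26a1 repeat bases -32 to -16 from the start. Rarb differed by 1.27 between the groups and Cyp26a1 by 0.06. A match describes these letters only, and the promoter windows of Dhrs3 and P2rx7 held no such repeat.

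The largest positive difference on the arrays was that of P2rx7, an ATP-gated cation channel of immune cells that senses extracellular ATP. It read 6.70, 8.06 and 7.72 with PBS and 9.84, 10.42 and 10.26 with ATRA. The lowest ATRA array was 1 log2 unit or more above the highest PBS array, PBS replicate 1 was low within its group, and the difference was 2.68 ± 0.35, or 6.39-fold (limma adjusted p = 0.0534, and 0.0166 without ATRA+pIC replicate 2, with 0.00423 to 0.205 over all settings). P2rx4, the next protein-coding gene on the chromosome and a second ATP-gated channel, read 9.55, 9.37 and 9.31 with PBS and 10.11, 10.09 and 10.24 with ATRA. Its groups were separate as well, with a difference of 0.74 ± 0.09 (limma adjusted p = 0.0534). P2ry2, a G-protein-coupled receptor for ATP and UTP, had 0.70 ± 0.14 and the platelet ATP channel P2rx1 0.26 ± 0.08, both separate, while P2ry1, the platelet ADP receptor, had -0.37 and was separate in the other direction. Of 19 measured purinergic receptors and nucleotide-cleaving enzymes, 0 were called and the median was 0.08. At an unadjusted p under 0.05, 4 were higher and 0 lower, against 3.29% of all genes higher.

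A rule based on size, an unadjusted p under 0.01, separate arrays and a level above background named the 20 largest differences in each direction, out of 145 and 156 genes that met it. The 20 largest positive ones ran from 0.77 to 2.68, with limma adjusted p from 0.00149 to 0.503. Clec7a (dectin-1, the fungal glucan receptor of myeloid cells) read 7.29, 8.14 and 7.14 with PBS and 8.81, 8.78 and 8.79 with ATRA, a difference of 1.27 ± 0.25. Its ATRA arrays lay within 0.03 of each other and above the PBS arrays, of which replicate 2 was the highest. Selp (P-selectin, the adhesion molecule that platelets and endothelium show when activated) read 9.56, 9.37 and 9.62 with PBS and 10.34, 10.57 and 10.19 with ATRA, with separate groups and a difference of 0.85 ± 0.12 (limma adjusted p = 0.0534). Vldlr, a lipoprotein receptor, had 0.91 ± 0.12, the membrane-fusion protein Stx1a 0.94 ± 0.12, the purine enzyme Gda (guanine deaminase) 0.95 ± 0.13, the glutamate-receptor partner Shisa9 1.44 ± 0.22, the sorting receptor Sorcs2 0.88 ± 0.18, and the exocyst subunit Exoc6b, which neighbours Cyp26b1, 0.77 ± 0.18. The cytoskeletal genes Tubb6 (a beta-tubulin) and Cfl2 (cofilin, which severs actin) had 1.15 ± 0.20 and 0.80 ± 0.14. Fabp4, a fatty acid carrier of fat cells and macrophages, had 1.56 ± 0.44 and spread widely, from 4.93 to 6.65 with PBS and from 6.76 to 8.23 with ATRA. The remainder were Spem1, Pisd-ps3, Tlcd1, Pbld1 and Slc17a8, with 0.77 to 0.93; the other probe set of Tlcd1 gave -0.19 ± 0.13. Tmem176a and Tmem176b, neighbouring membrane-protein genes that were chosen after their values were seen, had 0.65 ± 0.09 and 0.50 ± 0.07.

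The 20 largest negative differences ran from -1.32 to -0.59, with limma adjusted p from 0.0534 to 0.497. Pf4 (platelet factor 4, a chemokine of megakaryocytes that is also expressed in HSCs) read 11.61, 11.75 and 11.87 with PBS and 10.52, 10.93 and 10.87 with ATRA. All ATRA arrays were below all PBS arrays, and the difference was -0.97 ± 0.12, or 0.51 times the PBS level (limma adjusted p = 0.0534). Mid1, a microtubule-bound ubiquitin ligase, read 9.97, 10.73 and 10.17 with PBS and 9.0, 9.14 and 8.78 with ATRA, a difference of -1.32 ± 0.19, but its other probe set gave -0.12 ± 0.18. The enzyme Aspa (aspartoacylase) had -0.85 ± 0.19, the netrin and repulsive-guidance receptor Neo1 -0.70 ± 0.14, the sphingosine-1-phosphate exporter Mfsd2b -0.75 ± 0.17 and the urea transporter Slc14a1 -0.61 ± 0.11. Also among the 20 were 5 genes of the G2/M and mitosis list (Kif4, Ckap2l, Plk1, Prc1 and Kif22), the replication-list gene E2f8, the histone H4f16, the sister-chromatid cohesion enzyme Esco2 and the kinetochore subunit Nsl1; the last 2 are on no list. H4f16 had -0.80 ± 0.20, with -0.05 ± 0.22 at its other probe set. The others were Rny3, Mc5r, Ufsp1, Pls1 and Eral1, from -0.87 to -0.60.

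**Figure D3:**
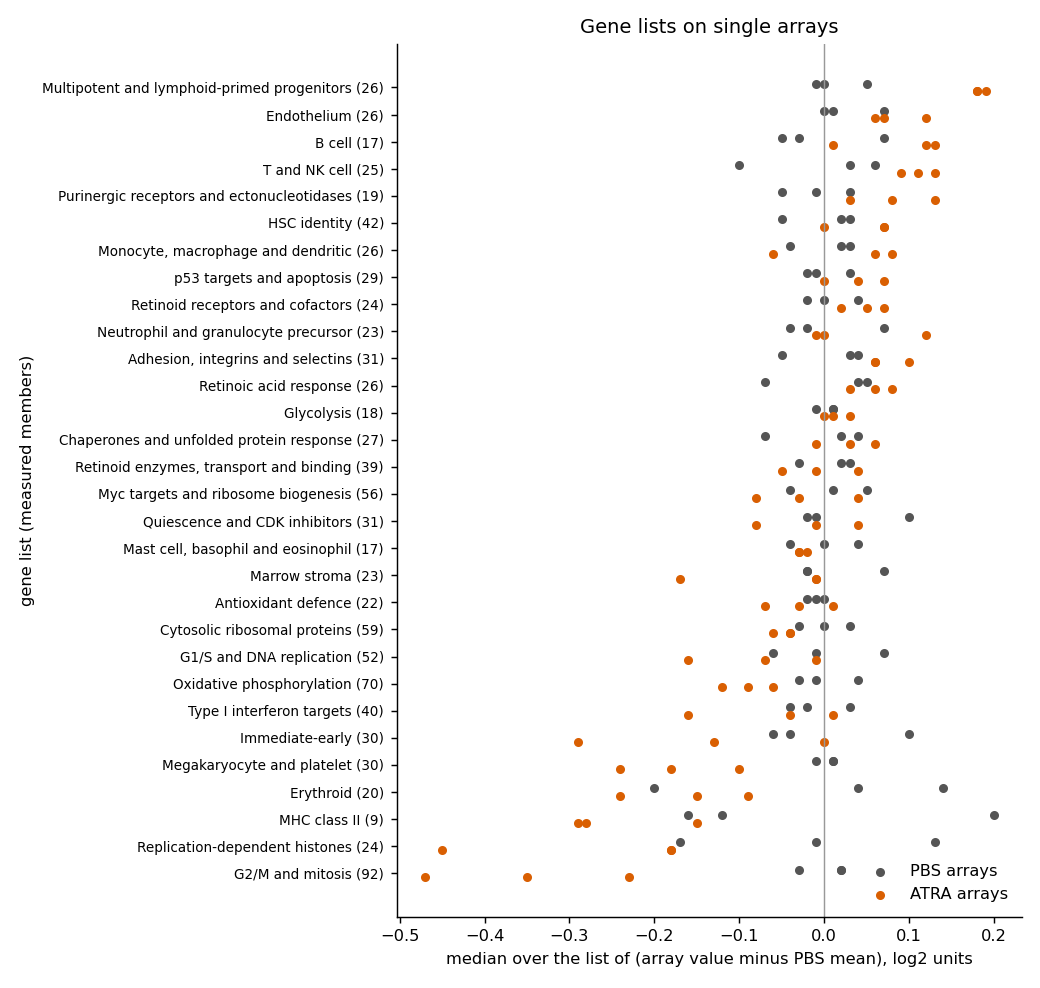
Median over each gene list of array value minus PBS mean (log2 units, x axis) on the 3 PBS and 3 ATRA arrays, for 30 lists ordered by their ATRA minus PBS median (measured members in brackets). The G2/M and mitosis list reads -0.23, -0.35 and -0.47 on the ATRA arrays and between -0.03 and 0.02 on the PBS arrays; most other lists lie within 0.2 of 0.

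The most uniform pattern was in genes of cell division. Of 92 measured G2/M and mitosis genes, 91 had a negative difference, and the other, Mybl2, had 0.00. By limma 0 were called; 72 were lower and 0 higher at an unadjusted p under 0.05, against 3.51% of all genes lower, and 74 had all ATRA arrays below all PBS arrays, against 6.08%. The median was -0.37, with a range of -0.64 to 0.00, so the differences of single genes were smaller than those of Dhrs3, Cyp26b1 or Rarb. Without ATRA+pIC replicate 2, 4 were called (Dlgap5, Ect2, Kif22 and Plk1) and 75 were lower at an unadjusted p under 0.05; with any 1 of the 6 PBS and ATRA arrays left out, 59 to 70 were. The genes of the list are expressed together in dividing cells and are not independent of each other. Whether fewer cells in division were sorted or each cell held less of these transcripts cannot be told apart in bulk RNA, here or for any list below.

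Mki67, the proliferation marker absent from resting cells, read 11.27, 11.33 and 11.25 with PBS and 10.88, 10.78 and 10.73 with ATRA. The groups were separate by more than the spread within either, and the difference was -0.48 ± 0.08 (limma adjusted p = 0.105, and 0.0655 without ATRA+pIC replicate 2, with 0.0268 to 0.418 over all settings). Ect2, the exchange factor that starts cytokinesis, read 8.79, 8.88 and 8.92 with PBS and 8.40, 8.33 and 8.19 with ATRA, a difference of -0.56 ± 0.08 (limma adjusted p = 0.0583). The chromosome motor Kif22 read 9.19, 9.11 and 9.12 with PBS and 8.70, 8.43 and 8.53 with ATRA, a difference of -0.59 ± 0.10 (limma adjusted p = 0.09). Neither overlapped. Plk1, a kinase that drives mitotic entry, had -0.61 ± 0.16, the chromosomal passenger Birc5 (survivin) -0.56 ± 0.11, the midzone bundler Prc1 -0.60 ± 0.13, the cytokinesis activator Racgap1 -0.49 ± 0.09 and the DNA topoisomerase Top2a -0.35 ± 0.08, all separate. Cks2, a partner of Cdk1, had -0.55 ± 0.11. Its 3 other probe sets gave identical values of -1.0 ± 0.20, so they may not be separate measurements.

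The list was split into 6 subsets of the mitotic machinery after the values were seen. With 91 of the 92 genes negative, the sign within each subset was all but fixed in advance, so the split describes sizes only. All 11 kinesin motors were negative with a median of -0.45, as were all 9 Aurora and Polo kinases and partners (-0.42), all 14 kinetochore and centromere genes (-0.29), all 7 cyclins, Cdk1, Cdc25 and Cks genes (-0.30), all 5 condensin subunits (-0.28) and all 5 spindle checkpoint genes (-0.28). On ATRA replicates 1, 2 and 3, 78, 82 and 88 of the 92 genes lay below the lowest PBS array, against 21.3% to 26.0% of all genes. Each of these counts had to be at least 74, the number of genes with separate arrays. Of the 3 arrays, replicate 3 had the lowest median, -0.47, and without it the list median was -0.30.

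Of 52 G1/S and DNA replication genes, 40 had a negative difference and the median was -0.08. At an unadjusted p under 0.05, 7 were lower and 0 higher, against 3.51% of all genes lower. The arrays were separate below PBS for 9 (17.3%, against 6.08% of all genes). With 1 array left out the median ran from -0.04 with 32 negative, without PBS replicate 3, to -0.13 with 47 negative, without ATRA replicate 2. The 9 separate genes were E2f8 (-0.59 ± 0.15), a repressor of E2F targets late in S phase, the ribonucleotide reductase subunits Rrm1 (-0.31 ± 0.08) and Rrm2 (-0.44 ± 0.12; 0.07 ± 0.11 at its other probe set), the Cdc7 activator Dbf4 (-0.42 ± 0.11), Fen1 (-0.36), Orc6 (-0.17), Pole (-0.16), Cdt1 (-0.13) and Cdk6 (-0.21 ± 0.09), the kinase that sets how fast HSCs leave quiescence. The replicative helicase subunits Mcm2 to Mcm7 had -0.11 to 0.03. Of 24 replication-dependent histone genes, whose transcripts peak in S phase, 21 were negative with a median of -0.37. At an unadjusted p under 0.05, 8 were lower (33.3%, against 3.51% of all genes), and 5 were separate below PBS (20.8%, against 6.08%). H2bc3 read 11.88, 11.90 and 11.87 with PBS and 11.51, 11.36 and 11.17 with ATRA, a difference of -0.54 ± 0.10, with the groups well apart. The histone median ran from -0.17 to 0.13 on the PBS arrays and from -0.45 to -0.18 on the ATRA arrays, so the groups all but touched. Without ATRA replicate 3, 4 histone genes were lower at an unadjusted p under 0.05.

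**Figure D4:**
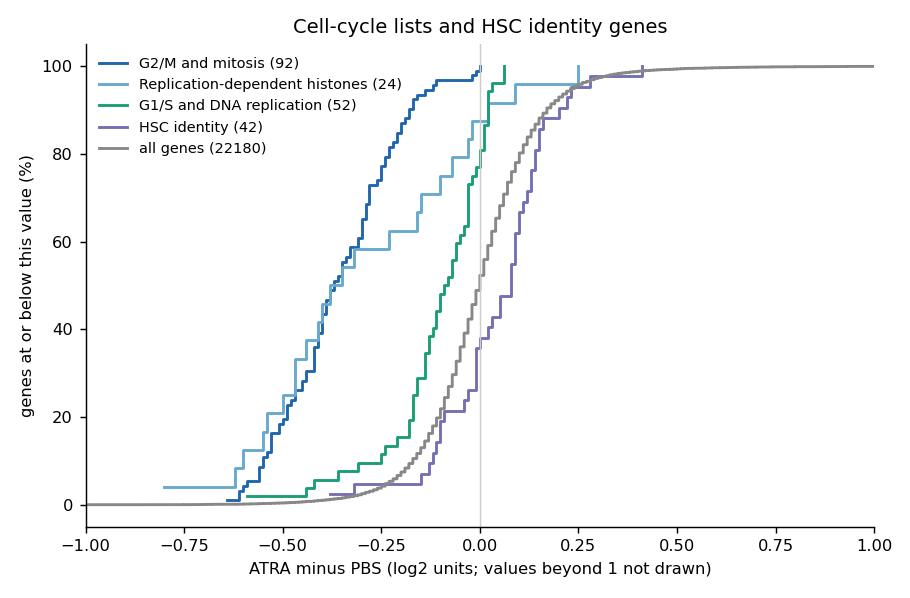
Cumulative share of genes (%, y axis) at or below each ATRA minus PBS difference (log2 units, x axis) for 3 cell-cycle lists, the HSC identity list and all genes. The G2/M curve is shifted to the left, with a median of -0.37; the G1/S curve lies nearer to all genes, with a median of -0.08, and the HSC identity curve lies slightly to their right, with 0.08.

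Promoters of the mitotic genes are shown because genes of this phase often share the paired elements CHR (searched as TTTGAA) and CCAAT, through which cell-cycle repressor complexes and NF-Y act; this search was chosen after the values were seen. TTTGAA, on either strand, was in 51 of the 78 G2/M promoters found (65.4%), in 20.5% of the G1/S promoters, in 17.8% of the promoters of all genes tested and in 17.9% of all windows. CCAAT was in 71.8% of the G2/M promoters, 56.8% of the G1/S promoters and 41.6% of those of all genes tested. The stretches below are from RefSeq, GRCm38.p6, on the minus strand, at chr7:135716465-135716574 for Mki67, chr7:127042421-127042520 for Kif22 and chr4:118437344-118437443 for Cdc20, which activates the anaphase-promoting complex and had -0.39 ± 0.13. Capitals mark both elements, TTCAAA and ATTGG being their reverse complements.
Mki67: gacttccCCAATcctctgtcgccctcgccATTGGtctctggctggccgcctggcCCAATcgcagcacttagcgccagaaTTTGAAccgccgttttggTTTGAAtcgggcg
Kif22: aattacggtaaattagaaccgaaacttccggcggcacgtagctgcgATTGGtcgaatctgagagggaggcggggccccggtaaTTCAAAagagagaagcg
Cdc20: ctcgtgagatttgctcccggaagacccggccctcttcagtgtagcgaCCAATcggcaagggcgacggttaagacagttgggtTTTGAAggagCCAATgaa
These letters describe the windows only; they belong to the class of genes, whatever the treatment.

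The HSC identity list had a median difference near 0. Of 42 measured, 0 were called, 2 were higher and 2 lower at an unadjusted p under 0.05 (0 to 3 higher and 1 to 3 lower with 1 PBS or ATRA array left out), and the median was 0.08. At that p, 3.29% of all genes were higher and 3.51% lower. The arrays were separate above PBS for 4 and below it for 4 (9.52% each, against 6.61% and 6.08% of all genes). For 32 of the 42 (76.2%) the 95% interval of the difference lay within 0.5 log2 units of 0. That share was below the 83.4% of all genes, and larger changes were outside the interval for those 32 only. The surface receptor Kit read 12.34, 12.37 and 12.34 with PBS and 12.42, 12.31 and 12.46 with ATRA, and the groups overlapped. The transcription factors Mecom (0.14 ± 0.24) and Hlf (0.12 ± 0.30) and the HSC reporter gene Fgd5 (0.02 ± 0.16) overlapped as well. Procr (EPCR, a surface marker of the most potent HSCs) read 8.23, 8.33 and 8.30 with PBS and 8.51, 8.48 and 8.56 with ATRA, a difference of 0.23 ± 0.09 with separate groups (limma adjusted p = 0.653). Slamf1 (CD150), a surface marker widely used to sort HSCs, had -0.32 ± 0.12, and Gfi1b, a repressor shared by HSCs and the megakaryocyte and erythroid lineages, -0.38 ± 0.10. The Cdk inhibitor Cdkn1c (p57), which helps keep HSCs quiescent, had 0.20 ± 0.15, and the retinoid-inducible orphan receptor Gprc5c -0.01 ± 0.13. Myc, a transcription factor that promotes growth, read 10.71, 10.58 and 10.47 with PBS and 10.69, 10.55 and 10.69 with ATRA, a difference of 0.06 ± 0.08 with overlapping arrays.

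Megakaryocyte and platelet genes were divided. Of 30 measured, 0 were called, 12 were lower and 3 higher at an unadjusted p under 0.05, and 12 were separate below PBS and 4 above. Those below it included, beside Pf4, the platelet integrin Itga2b (10.28, 10.25 and 10.36 with PBS; 9.83, 9.85 and 9.93 with ATRA; -0.43 ± 0.15) and von Willebrand factor Vwf (9.39, 9.31 and 9.40; 9.10, 9.19 and 9.0; -0.27 ± 0.09). Neither overlapped. Treml1 and Gp5, both platelet surface proteins, had -0.53 and -0.47, and the tetraspanin Cd9 -0.38 ± 0.09, with -0.01 ± 0.09 at its other probe set. Those above PBS on every array were Selp, the podoplanin receptor Clec1b (0.74 ± 0.15), P2rx1 and the channel Trpc6 (0.21). The list median on the ATRA arrays was -0.24, -0.18 and -0.10, below the PBS range of -0.01 to 0.01. With 1 PBS or ATRA array left out, 9 to 11 were lower at an unadjusted p under 0.05. The list shares Pf4, Ppbp, Gp9 and Treml1 with the megakaryocyte markers, of which all 4 measured were negative with a median of -0.48. For Gp9 (-0.14 ± 0.11) and Ppbp (-0.44 ± 0.33) the arrays overlapped between the groups.

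Of 20 erythroid genes 16 were negative with a median of -0.20. Only 1 was lower at an unadjusted p under 0.05, against 3.51% of all genes. Separate below PBS were 6 of the 20, against 6.08% of all genes. Those 6 included the erythroid factor Klf1 (-0.58 ± 0.29), the adhesion protein Icam4 (-0.42 ± 0.10) and the erythropoietin receptor Epor (-0.38 ± 0.21). The list median of PBS replicate 2, -0.20, lay within the range of the ATRA arrays. Without PBS replicate 3 the list median was -0.07 with 13 negative, and without ATRA+pIC replicate 2, 5 genes were lower at an unadjusted p under 0.05. Of 26 genes of multipotent and lymphoid-primed progenitors, 22 were positive with a median of 0.14. At an unadjusted p under 0.05, 4 were higher (15.4%, against 3.29% of all genes) and 0 lower. Without ATRA+pIC replicate 2, 7 were higher, and without PBS replicate 3 or ATRA replicate 1, 2 were. The arrays were separate above PBS for 8 (30.8%, against 6.61% of all genes). Emb, an adhesion glycoprotein of early progenitors, had 0.42 ± 0.09 (0.00 at its other probe set), the G-CSF receptor Csf3r 0.62 ± 0.15 and the cytokine receptor Flt3, absent from the most primitive HSCs, 0.43 ± 0.28, while Cd48, another progenitor marker, had 0.05 ± 0.28. The list median was 0.18 or 0.19 on each ATRA array and -0.01 to 0.05 on the PBS arrays, and the part of such cells in the other results was not tested. Of 26 endothelial genes 5 were separate above PBS (19.2%, against 6.61% of all genes) and 1 below (3.85%, against 6.08%). Ptprb (0.65 ± 0.14) and Cdh5 (0.53 ± 0.19), both endothelial junction genes, were in the lead. The defining markers Kdr and Pecam1 had 0.07 and -0.06.

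The granulocyte genes Elane and Mpo set 1 array apart. Elane, the neutrophil elastase of granulocyte precursors, read 6.32, 5.99 and 6.32 with PBS and 10.08, 6.48 and 6.48 with ATRA. Mpo, the myeloperoxidase of the same cells, read 6.69, 6.31 and 6.25 with PBS and 9.47, 6.46 and 6.49 with ATRA. In both cases ATRA replicate 1 was more than 2 log2 units above every other array of the comparison, and the differences were 1.47 ± 0.75 and 1.05 ± 0.62. Prtn3, a further granule protease that neighbours Elane, read 8.08, 8.27 and 7.93 with PBS and 9.09, 8.75 and 8.71 with ATRA, which was separate on all arrays (0.76 ± 0.14). Over the 23 neutrophil and precursor genes the median on ATRA replicate 1 was 0.12, and it was -0.01 and 0.00 on replicates 2 and 3. On the PBS arrays it ran from -0.04 to 0.07. Of the 5 defining neutrophil markers, 3 were above background, and Ltf had a difference of 0.01. The part of such cells in other results on ATRA replicate 1 was not tested. Without that array the G2/M median was -0.42.

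Biosynthesis and signalling lists held small differences. Of 70 oxidative phosphorylation genes, 61 were negative, 7 were lower and 0 higher at an unadjusted p under 0.05, against 3.51% of all genes lower, 19 were separate below PBS, against 6.08%, and 0 above, and the median was -0.09. Without PBS replicate 3, 3 were lower and 1 higher at an unadjusted p under 0.05 and the median was -0.07. Ndufv2, a complex I subunit, read 10.86, 10.85 and 10.96 with PBS and 10.68, 10.61 and 10.69 with ATRA, a difference of -0.23 ± 0.07 with separate arrays, and the ATP synthase subunit Atp5k had -0.22 ± 0.07. For 67 of the 70 (95.7%, against 83.4% of all genes) the 95% interval lay within 0.5 log2 units of 0. Of 59 ribosomal protein genes 48 were negative with a median of -0.05 (40 negative after cyclic loess scaling), and of 56 Myc targets and ribosome biogenesis genes 34 were negative with a median of -0.02. The glucose transporter Slc2a1 had 0.25 ± 0.08 with separate arrays, in a glycolysis list with a median of 0.01. Over the lists not described here (quiescence and Cdk inhibitors, p53 targets, chaperones, antioxidant defence, adhesion, and markers of monocytes, B, T and NK cells, mast cells and marrow stroma) the medians ran from -0.05 to 0.12, and 0 members were called.

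Of 30 immediate-early genes, which stimulated cells transcribe within minutes, 25 were negative and the median was -0.14. At an unadjusted p under 0.05, 6 were lower and 1 higher, against 3.51% and 3.29% of all genes. Jun read 12.29, 12.41 and 12.37 with PBS and 12.16, 12.07 and 12.10 with ATRA, which did not overlap (-0.24 ± 0.09). Atf3 (-0.51 ± 0.20) and Egr2 (-0.32 ± 0.10), both stress- or growth-induced transcription factors, were separate too. The list median was 0.00 on ATRA replicate 1 and -0.29 on replicate 3, within which range the PBS arrays at -0.06 and -0.04 fell. Without ATRA replicate 3 it was -0.03, with 2 genes lower at an unadjusted p under 0.05, and without PBS replicate 2 it was -0.11, also with 2. Of 40 type I interferon targets 26 were negative with a median of -0.10, and 0 passed an unadjusted p under 0.05 in either direction; without ATRA+pIC replicate 2, 2 were higher and 5 lower. The interferon-induced GTPase Igtp had -0.59 ± 0.39 and the master regulator Irf7 -0.21 ± 0.19. Of 9 MHC class II genes 8 were negative, led by the neighbouring chains H2-Ab1 (-0.69 ± 0.32) and H2-Aa (-0.59 ± 0.31), for both of which PBS replicate 3 was 1 log2 unit or more above the other PBS arrays. Without PBS replicate 3 these were -0.35 and -0.18, and the list median was -0.09 in place of -0.21.

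The same contrast could be read a second time in the mice given pIC, as ATRA+pIC (3 arrays) minus pIC (2 arrays), which shares no array with the comparison at rest. No gene was called there (0 of 22180, 0%; 2242 at an unadjusted limma p under 0.05, and 112 called with array weights), and none for the difference between both contrasts (0%; 1390 at an unadjusted p under 0.05). Dhrs3 read 9.83 and 9.94 with pIC and 10.74, 11.12 and 10.74 with ATRA+pIC, so that all ATRA+pIC arrays were above all pIC arrays; the difference was 0.98 ± 0.18. It was smaller than at rest by 1.08 ± 0.24, which missed the threshold (limma adjusted p = 0.702). P2rx7 had 1.92 ± 0.39, Rarb 1.0 ± 0.28, Cyp26b1 0.69 ± 0.36 and P2rx4 0.46 ± 0.10. Of the 20 largest positive genes at rest 19 were positive under pIC, with a median of 0.46 against 0.93, and of the 20 largest negative 15 were negative, with a median of -0.27 against -0.65. Without ATRA+pIC replicate 2, 17 of 20 kept each sign, with medians of 0.34 and -0.16. Since these genes were chosen for their size at rest, the smaller medians under pIC are a description only. Over all genes 44.7% were positive under pIC, and the correlation of both differences across genes, which are not independent replicates, was 0.21.

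Some genes read differently in the 2 settings, none past limma's threshold for the difference (the lowest adjusted p among the genes named here was 0.395, for Mid1 and Mterf1b). Mid1 had -1.32 ± 0.19 at rest and 0.66 ± 0.22 under pIC, Mterf1b 0.54 ± 0.08 and -0.26 ± 0.09, and Pf4 -0.97 ± 0.12 and 0.11 ± 0.14. Mki67 had -0.48 ± 0.08 and -0.02 ± 0.09, and Vldlr 0.91 ± 0.12 and 0.01 ± 0.14. The G2/M list had a median of -0.22 under pIC with 88 of 92 genes negative (-0.20 and 91 without ATRA+pIC replicate 2). HSC identity genes had a median of 0.09 under pIC, and -0.01 without that array, and megakaryocyte and platelet genes 0.02.

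**Figure D5:**
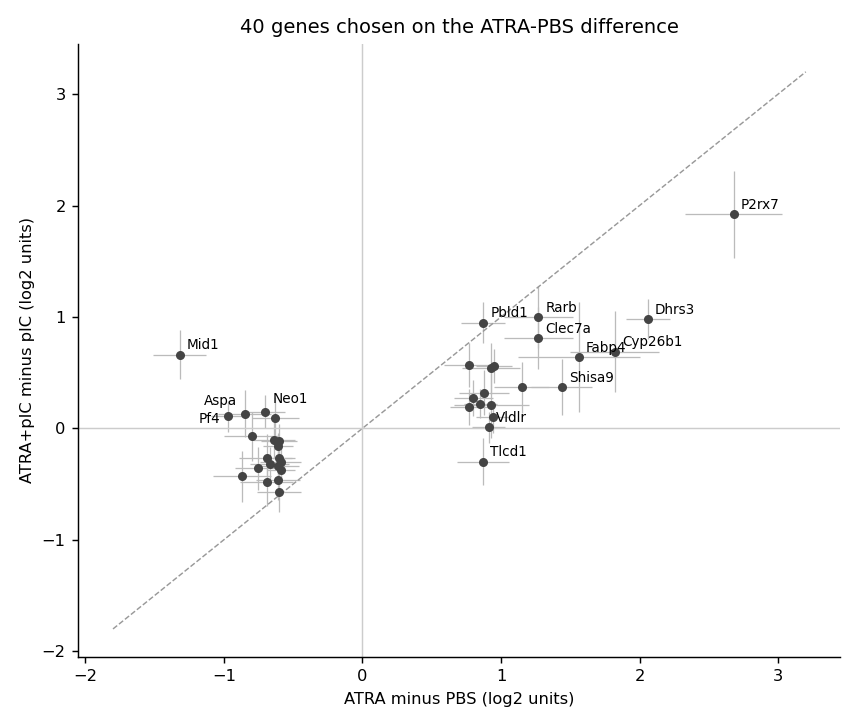
ATRA+pIC minus pIC (y axis) against ATRA minus PBS (x axis), both in log2 units with SE bars, for the 40 genes with the largest differences at rest; the dashed line marks equal values. P2rx7 lies at 2.68 and 1.92 and Dhrs3 at 2.06 and 0.98, while Mid1 lies at -1.32 and 0.66.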

How the data were processed

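The deposited table held log2 intensities of 41345 probe sets on 11 arrays, with 1 column per sample and 0 columns left unmapped; oligo 1.36.1, RMA and limma 3.28.20 are named per the submitters' processing notes, while the order of these steps, batches and genome build were not stated there. The value table holds no scanner background, so detection was judged against olfactory and vomeronasal receptor genes. Of the probe sets, 23521 carry 1 gene symbol in GEO's platform annotation, 1814 several and 16010 none.

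The log2 values of 22180 genes entered one linear model of the 4 groups (limma 3.58.1, R 4.3.3); p-values were adjusted by Benjamini-Hochberg over all of them. The members and gene lists were chosen with earlier results of these data known, so lists are described by counts and medians, with no set test. Named genes were those called, the 20 largest differences in each direction under the rule given in the text, up to 4 per list with the smallest p, and 44 listed genes; Tmem176a, Tmem176b, Mterf1b, Tuba8, list members given outside these and genes called under other settings were chosen after their values were seen. The fit was tested on simulated data. Deviations of same-numbered PBS and ATRA arrays correlated at -0.06, 0.02 and 0.07, so numbers were not taken to pair samples. Alternatives were scaling, a filter on dim genes, other probe sets per gene, a 2-group fit, the replicate block, the prior, array weights and each array left out. Tables and figures used Python 3.11.15, numpy 2.4.6, pandas 2.3.3 and matplotlib 3.10.9.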

Additional observations from a re-analysis of the deposited data

How the results depend on the processing

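Counts of called genes in ATRA versus PBS were sensitive to the model's spread: against 1 gene, limma called 16 without the dimmest 40% of genes (13308 tested), 22 with a trend and robust prior, 28 with array weights and 1 to 26 with any 1 array left out, the 26 being without ATRA+pIC replicate 2. Scaling by cyclic loess, averaging the probe sets of a gene, each probe set alone, a fit of ATRA and PBS arrays only and, chosen after seeing the data, all 41345 probe sets gave 1 each; the last had 2564 probe sets at an unadjusted p under 0.05. With the replicate number as a block, 4 were called (Dhrs3, P2rx7, Pf4 and Stx1a), and 2 with the replicate block in ATRA and PBS arrays only. Whether the numbers pair the samples is not known, so no conclusion is drawn from these counts. For ATRA+pIC versus pIC, 112 were called with array weights (3909 at an unadjusted p under 0.05) and 0 to 1 with an array left out; for the difference of both contrasts, 0 to 1 (2238 at an unadjusted p under 0.05 with array weights). The cause was not tested.

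Genes with differences near 0 could change sign with the setting, and examples are 6 genes that did so in 10 cases. With 1 array left out, Cyp26a1 ran from -0.01 (without PBS replicate 2) to 0.1, Crabp2 from -0.02 (ATRA replicate 2; -0.01 without PBS replicate 3) to 0.13, Fgd5 from -0.04 (ATRA replicate 1) to 0.05, Myc from -0.002 (PBS replicate 3) to 0.12, Cd48 from -0.1 (ATRA replicate 1; -0.08 without PBS replicate 2) to 0.18, and Gprc5c from -0.15 to 0.16 (PBS replicate 3; 0.01 without ATRA replicate 1). Cd48 had -0.04 with array weights. Of the list medians under these settings, 573 stayed within the spread of the PBS or ATRA arrays and 27 did not; the G2/M median ran from -0.42 to -0.30, and that of the mast cell list from -0.25 to 0.04.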
